A study of Mus musculus with 14 samples.

Results

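Aldo-keto reductase genes were followed by RNA sequencing in the colon of mice gavaged with PBS, a saline buffer, or with Bacteroides thetaiotaomicron, an anaerobic gut bacterium that digests polysaccharides. The 8 genes described here are Akr1a1, Akr1b3, Akr1b7, Akr1b8, Akr1c12, Akr1c13, Akr1c14 and Akr1c19, out of 17 rows named Akr and 21898 genes in all. They were chosen by name with the gavage comparison of these libraries already known, in which Akr1b7 was one of the genes that were lower. Their fold changes between the gavages are therefore given as a description and support nothing further.

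There were 7 PBS libraries and 7 B. thetaiotaomicron libraries, all of colon tissue from mice labelled wt. The treatment label (Drug stimulation) and the batch label were the same in all 14 libraries, so the gavage was read from the sample titles, and batches could not be compared. The labels do not state strain, age, sex, dose, time of sampling or which part of the colon was taken. Most titles call the libraries biological replicates without naming the animals, so p-values measure only the spread between these libraries. Total counts ran from 13150140 to 16781708 reads per library. All 11 epithelial marker genes searched for were detected, with a summed level of 12677 to 16323 CPM (counts scaled to the library total). The mean log2 CPM of 6 posterior Hox genes (the distal Hox score), which mark the distal hindgut, ran from -0.15 in PBS sample 4 to 5.42 in PBS sample 3. Some of these genes were barely detected, so the score depends in part on low counts. Hoxd10 and Hoxd11 had medians of 1.76 and 1.59 CPM with PBS and 0.37 and 0.074 CPM with the bacterium. Hoxd12 did not pass the filter on low counts.

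Aldo-keto reductases are soluble enzymes that use NADPH or NADH to reduce aldehydes and ketones to alcohols. Akr1a1 encodes aldehyde reductase, which in mice also serves vitamin C synthesis, and Akr1b3 encodes aldose reductase, which turns glucose into sorbitol. Akr1b7 and Akr1b8 are aldose reductase-like enzymes that act on reactive aldehydes, and Akr1b7 is best known from the vas deferens and the adrenal gland. The Akr1c genes encode hydroxysteroid dehydrogenases and related reductases: Akr1c14 reduces steroid hormones, Akr1c19 acts on hydroxyhexobarbital and other alcohols, and Akr1c12 and Akr1c13 are closely related ketone reductases. The family defends cells against aldehydes from food, lipids and microbes, and several members are known targets of the oxidant-sensing factor NRF2.

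On GRCm38, Akr1a1 (ENSMUSG00000028692) spans bases 116636510 to 116651680 of chromosome 4 and is read from the minus strand. The 1b genes sit together on chromosome 6, with Akr1b3 (ENSMUSG00000001642) from 34302434 to 34317478 (minus), Akr1b8 (ENSMUSG00000029762) at 34354119 to 34368463 and Akr1b7 (ENSMUSG00000052131) at 34412334 to 34423142, the latter pair read from the plus strand. The 1c genes sit together on chromosome 13, with Akr1c14 (ENSMUSG00000033715) at 4049011 to 4090688, Akr1c13 (ENSMUSG00000021213) at 4191150 to 4205596 and Akr1c19 (ENSMUSG00000071551) at 4228700 to 4252843 read from the plus strand, and Akr1c12 (ENSMUSG00000021211) from 4268176 to 4279433 read from the minus strand. GENCODE M21 lists the 8 as protein-coding, and each value is a count over the gene as a whole.

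The promoters of the member that differed most between the gavages and of 3 that differed most among libraries are shown. Each has 300 bases that end 50 bases past a RefSeq transcript start, 5′ to 3′ along the gene's own strand. In all of them that start lies inside the gene span given above, downstream of its first base, and by far the most so for Akr1c14 and Akr1c19. The promoters are RefSeq sequences on GRCm38.p6, where 7 of the 8 members matched by symbol, and capitals mark the motifs found. Akr1b7 is at chr6:34412112-34412411, Akr1b8 at chr6:34353896-34354195, Akr1c14 at chr13:4059341-4059640 and Akr1c19 at chr13:4233490-4233789, all on the plus strand.
Akr1b7: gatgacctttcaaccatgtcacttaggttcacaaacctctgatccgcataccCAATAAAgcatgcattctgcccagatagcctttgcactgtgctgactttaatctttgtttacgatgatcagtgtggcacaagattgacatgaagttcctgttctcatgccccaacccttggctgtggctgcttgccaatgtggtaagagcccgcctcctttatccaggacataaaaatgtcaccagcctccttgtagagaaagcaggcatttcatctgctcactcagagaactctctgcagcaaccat
Akr1b8: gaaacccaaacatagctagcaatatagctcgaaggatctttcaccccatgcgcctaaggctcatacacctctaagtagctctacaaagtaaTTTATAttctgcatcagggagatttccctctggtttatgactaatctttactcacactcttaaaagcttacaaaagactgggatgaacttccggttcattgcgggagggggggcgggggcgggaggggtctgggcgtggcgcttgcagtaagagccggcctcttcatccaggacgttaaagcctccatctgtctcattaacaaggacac
Akr1c14: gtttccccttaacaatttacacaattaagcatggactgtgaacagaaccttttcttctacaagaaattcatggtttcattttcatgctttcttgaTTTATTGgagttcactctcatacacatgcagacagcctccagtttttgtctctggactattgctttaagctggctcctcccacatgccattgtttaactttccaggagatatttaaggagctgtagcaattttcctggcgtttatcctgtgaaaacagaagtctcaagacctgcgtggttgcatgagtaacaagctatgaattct
Akr1c19: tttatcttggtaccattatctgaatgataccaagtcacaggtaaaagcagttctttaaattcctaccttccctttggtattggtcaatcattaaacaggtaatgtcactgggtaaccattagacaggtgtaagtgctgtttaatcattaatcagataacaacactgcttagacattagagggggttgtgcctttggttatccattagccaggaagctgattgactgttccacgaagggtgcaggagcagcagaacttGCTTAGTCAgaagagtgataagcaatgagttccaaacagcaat

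A total of 5 motifs were searched for on both strands in the 7 promoters and in 32544 distinct mouse promoters of 300 bases. The letters CAATAAA, which posterior Hox and Cdx factors recognise, occurred in 4.51% of all promoters. They were found in Akr1b7 (bases -198 to -192, counting the RefSeq transcript start as 0) and, on the other strand, in Akr1c14 (-155 to -149). The core of the antioxidant response element through which NRF2 acts, TGACNNNGC, was found in Akr1c19 alone (bases 7 to 15, other strand), against 12.4% of all promoters. TATAAA was found in Akr1b8 alone (-159 to -154, other strand), against 13.6%. CAAGGTC, the site of the nuclear receptors LRH-1 and SF-1 (3.95% of promoters), and TGANTCA, the AP-1 site (7.79%), were found in none of the 7. TGANTCA can overlap the antioxidant core. These are matches of letters within these windows.

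Levels of the family spanned a wide range. They are compared per gene length, as the FPKM that the authors deposited (fragments scaled to gene length and library total). Akr1a1 was highest in every library, from 159 to 192 FPKM with a median of 172. Akr1c13 followed with a median of 118 FPKM and Akr1c12 with 98.5 FPKM. These reductases varied little, the highest library being 1.2, 1.33 and 1.43 times the lowest for Akr1a1, Akr1c13 and Akr1c12.

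Akr1c14 had a median of 67.6 FPKM, Akr1b8 of 50.1 FPKM and Akr1c19 of 22.9 FPKM. These were the members that varied most after Akr1b7: the highest library was 2.48 times the lowest for Akr1c14, 2.66 times for Akr1b8 and 4.51 times for Akr1c19. Akr1b3 had a median of 9.67 FPKM and Akr1b7, the lowest member, of 0.668 FPKM. Of the 7 neighbouring pairs in this order, 5 had overlapping ranges, the exceptions being Akr1a1 over Akr1c13 and Akr1b3 over Akr1b7. Within libraries the order was tighter, with Akr1c13 above Akr1c12 and Akr1c19 above Akr1b3 in all 14, Akr1b8 above Akr1c19 in 13, Akr1c12 above Akr1c14 in 12 and Akr1c14 above Akr1b8 in 11.

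The rank of Akr1b3 depended on the gene length used. The deposited table gives it 8384 bases, while its longest coding transcript in GENCODE M21 has 1387 bases. Scaled to such transcripts, a setting added after the data were seen, Akr1b3 had a median of 58.5 FPKM and moved from the seventh to the fifth place among the 8, above Akr1b8 at 55.3 FPKM, and 4 neighbouring pairs overlapped. Akr1a1 remained first, with a median of 334 FPKM. The reads were still those counted over the whole gene, so any that fall outside the transcript raise these values.

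**Figure D1:**
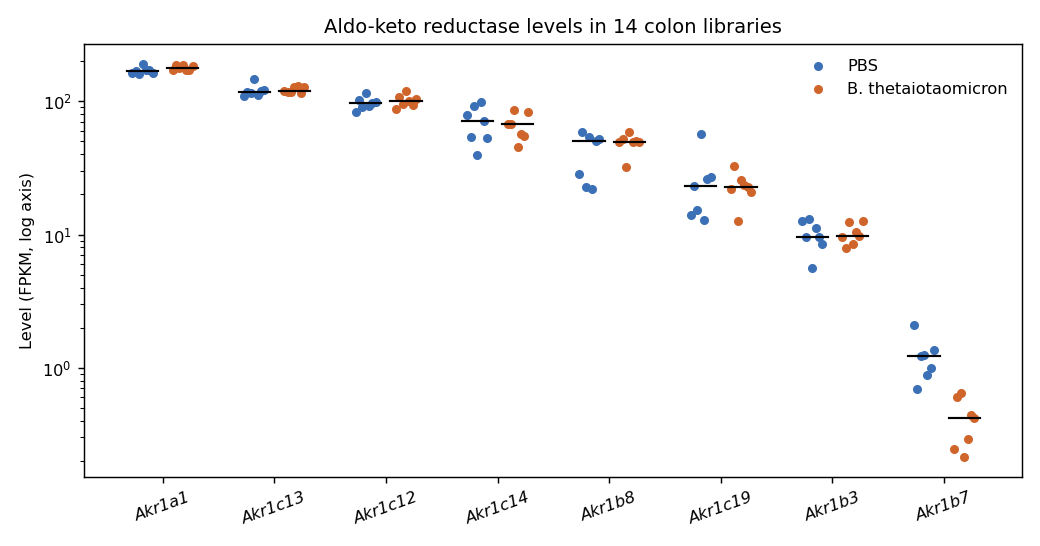
Level of each member in the 14 libraries, as deposited FPKM on a log axis, with 1 point per library, PBS in blue and B. thetaiotaomicron in orange, and a bar at each group's median. Akr1a1 lies at the top with a median of 172 FPKM over all libraries, Akr1b7 at the bottom with 0.668 FPKM, and the colours overlap for every member but Akr1b7.

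Some members share sequence with other genes, and the treatment of reads that match several genes bears on their values. Of the 50-base windows in the longest coding transcript of Akr1c12, 28.6% also occur in other transcripts, all of them in Akr1c13, and the same share holds for Akr1c13. At 100 bases the share was 11.5% for each. Of the 50-base windows of Akr1b3, 59.9% occur elsewhere, most of them in the related locus Gm6644. For Akr1b7, Akr1b8, Akr1c14 and Akr1c19 the share was 2.52% to 5.9%.

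Akr1b7 was the member whose groups stood apart. Its read counts were 12 to 35 with a median of 24 after PBS and 4 to 12 with a median of 8 after the bacterium. In CPM on scaled libraries the lowest, median and highest PBS libraries had 0.874, 1.55 and 2.74, and the B. thetaiotaomicron libraries had 0.269, 0.535 and 0.85. All PBS libraries lay above all B. thetaiotaomicron libraries in CPM, though the gap was narrow: PBS sample 2 and B. thetaiotaomicron sample 3 had 12 reads each. The highest library was PBS sample 1. Mean levels were 1.56 ± 0.59 and 0.526 ± 0.227 CPM (SD, n = 7 each), with a log2 fold change of -1.55 ± 0.30 (SE). In bulk tissue, fewer cells that express a gene and less of its RNA per cell cannot be told apart.

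Of the 14070 genes tested, 0.249% had an edgeR adjusted p (Benjamini-Hochberg) under 0.05 in either direction and 0.0924% passed as lower. Among the 8 members, Akr1b7 passed as lower and no other did. In DESeq2, which called 3.18% of genes, Akr1b7 was likewise the only member called. The groups did not overlap in CPM for 0.54% of genes tested and, among the members, for Akr1b7. Since this comparison chose the members, these counts are a description. All 8 members passed the filter on low counts, but Akr1b7 did so through the PBS group: 7 PBS libraries and 2 B. thetaiotaomicron libraries reached the filter's 0.671 CPM.

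The size of the Akr1b7 difference changed little with the processing, from -1.70 to -1.37 on the log2 scale over 25 other settings. The difference kept its sign in all of them, which leaving out libraries could hardly alter because the groups did not overlap. Its adjusted p lay at 0.047 by edgeR and ranged from 0.00112 to 0.259 over those settings, so the call did not hold throughout. It was lost when any 1 library other than PBS sample 2 was left out. The epithelial score (mean log2 CPM of 11 markers) averaged 9.74 ± 0.21 after PBS against 9.90 ± 0.09 after the bacterium (SD, n = 7 each), and the distal Hox score 2.40 ± 2.05 and 1.51 ± 1.28. With the distal Hox score as a covariate the log2 fold change of Akr1b7 was -1.42, and with the epithelial score -1.41, neither past the threshold.

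Fat tissue is another known site of Akr1b7. The summed level of 6 adipocyte markers ran from 19.3 to 161 CPM with PBS and from 26.1 to 119 CPM with the bacterium, with none at 0 in all libraries. That of 7 macrophage markers ran from 271 to 396 CPM with PBS and from 346 to 451 CPM with the bacterium. The part of either in the Akr1b7 difference was not tested.

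**Figure D2:**
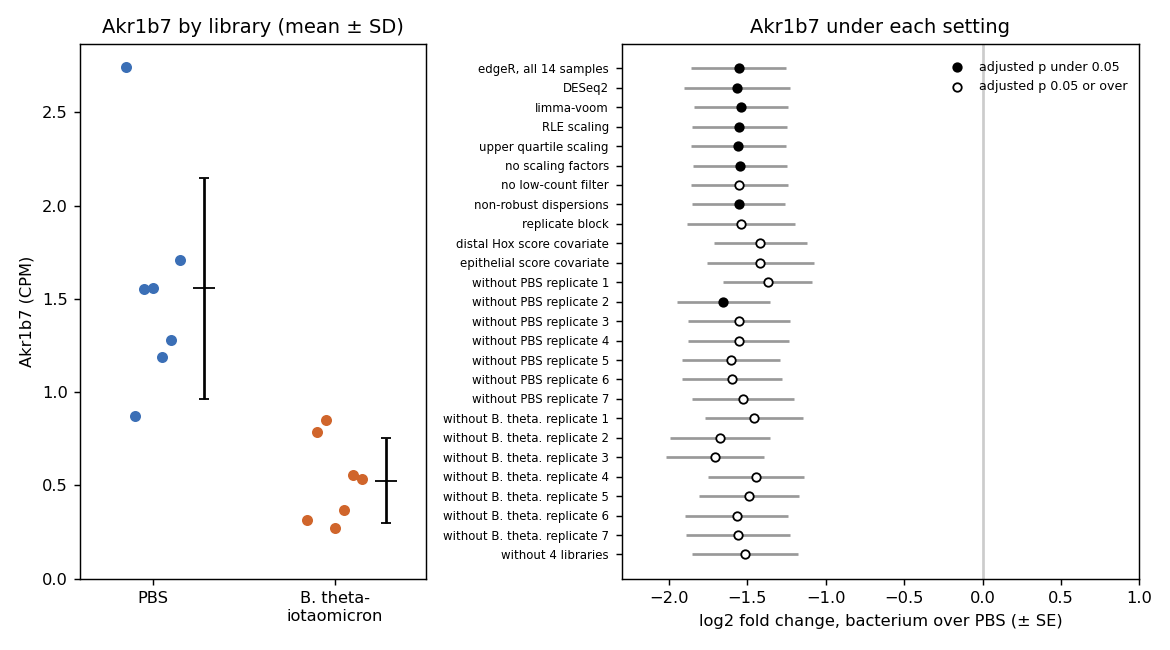
Left, Akr1b7 in CPM in each library, with the mean ± SD of each group beside the points. Right, its log2 fold change (bacterium over PBS, ± SE) under each setting, filled where the adjusted p was under 0.05; the estimates lie between -1.70 and -1.37 while the call comes and goes.

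The other 7 members had log2 fold changes between -0.12 and 0.24, and their groups overlapped. Akr1b8, which reduces retinal and lipid aldehydes, had 33.5, 75.6 and 87.4 CPM in the lowest, median and highest PBS libraries and 49.0, 74.3 and 87.1 CPM in those of the bacterium. Its log2 fold change was 0.24 ± 0.23 (SE), from means of 61.7 ± 23.2 and 73.0 ± 11.6 CPM (SD, n = 7 each). The medians lay close together and the low libraries were found under either gavage.

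Akr1c19 had 79.1, 135 and 327 CPM (lowest, median and highest) with PBS and 75.6, 132 and 196 CPM with the bacterium. Its log2 fold change was -0.12 ± 0.31 (SE). Akr1c14 had 126, 231 and 334 CPM with PBS and 145, 218 and 284 CPM with the bacterium, a log2 fold change of -0.09 ± 0.21 (SE). In each of these members the ranges overlapped widely and the standard error was over the difference itself. Akr1b3, the aldose reductase gene, had 45.8, 80.2 and 109 CPM with PBS and 66.8, 80.3 and 106 CPM with the bacterium, a log2 fold change of 0.01 ± 0.17 (SE).

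The steadier members bounded the difference more closely. Akr1a1 had 434, 465 and 515 CPM (lowest, median and highest) with PBS and 466.2, 495 and 520 CPM with the bacterium, a log2 fold change of 0.06 ± 0.05 (SE). Akr1c13 had 162, 168 and 204 CPM with PBS and 162, 173 and 184 CPM with the bacterium, a log2 fold change of 0.02 ± 0.05 (SE). Akr1c12, its close relative, had 108, 123 and 141 CPM and 109, 124 and 148 CPM, a log2 fold change of 0.05 ± 0.07 (SE). The groups of all 3 overlapped. The median log2 fold change of the 8 members was 0.01, against -0.01 over all genes tested, with 5 members higher and 3 lower in fitted value.

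Of the 9 other Akr rows, 4 passed the filter on low counts. Akr1e1 had a log2 fold change of 0.05 ± 0.09 (SE), Akr1b10, an aldose reductase-like gene that lies between Akr1b8 and Akr1b7, of 0.03 ± 0.11 (SE), and Akr7a5, which encodes an aflatoxin aldehyde reductase, of -0.12 ± 0.09 (SE). Akr1c18, which encodes a progesterone-inactivating reductase, varied widely, from 0.179 to 4.81 CPM with PBS and from 0.0708 to 10.6 CPM with the bacterium, with a log2 fold change of 0.98 ± 0.85 (SE). None of the 4 passed the threshold or an unadjusted p of 0.05, by edgeR or by DESeq2. Akr1c6 and Akr1c20 had no read in any library, which allows up to 3 reads in each by counting error, and Akr1c21, Akr1cl and Akr1d1 were below 1 CPM in every library.

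**Figure D3:**
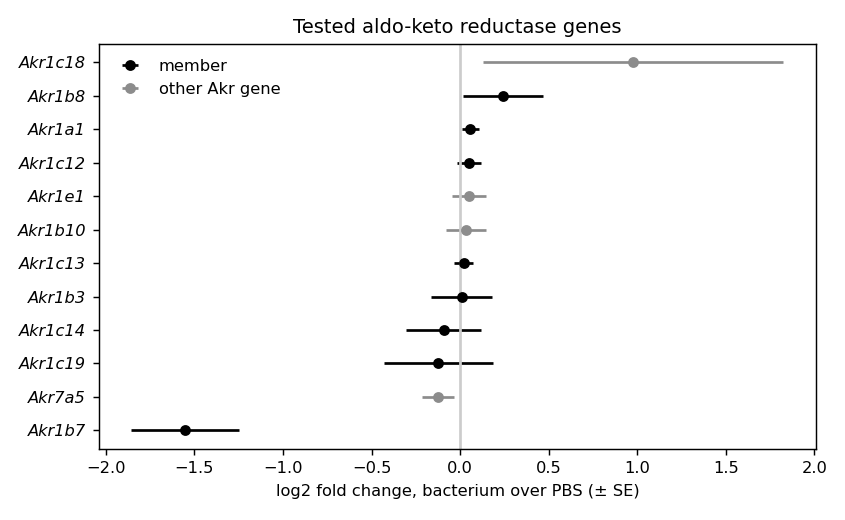
Log2 fold change (bacterium over PBS, ± SE, n = 7 each) of the 12 Akr genes that passed the filter on low counts, members in black and other Akr genes in grey. Akr1b7 lies at -1.55, the other members lie between -0.12 and 0.24, and Akr1c18 has the widest error.

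Among libraries of the same gavage the members varied in opposite directions. To describe this without the comparison that chose them, log2 CPM was centred on the mean of each gavage group. Akr1b3 and Akr1c14 varied together (Pearson's r = 0.85 over 14 libraries). Akr1c19 varied inversely to each, with r = -0.94 for Akr1b3 and -0.81 for Akr1c14. Within the chromosome 13 group, Akr1c19 varied with the genes on either side of it, with r = 0.68 for Akr1c13 and 0.65 for Akr1c12, and inversely to Akr1c14 at the far end. The ratio of Akr1c14 to Akr1c19 in FPKM ran from 0.70 in PBS sample 4 to 7.69 in PBS sample 5. Akr1c12 and Akr1c13 had r = 0.69, and share sequence as given above. These values share libraries and scaling and are given with no test.

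The libraries with a high distal Hox score had more Akr1b3 and Akr1c14. Akr1b3 had 45.8 CPM in the PBS library with the lowest score (sample 4) and 109 CPM in that with the highest (sample 3). Its group-centred relation with the score had r = 0.86 and Spearman's rho = 0.81 over 14 libraries (two-sided permutation within groups, p = 0.00021 and 0.00115, adjusted p = 0.00252 and 0.0112 over the 24 relations of 8 members with 3 scores). Within the PBS group r was 0.82 and within the B. thetaiotaomicron group 0.96 (n = 7 each), and without PBS samples 1 and 3, the 2 libraries farthest from the median score, r was 0.81.

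Akr1c14, the steroid-reducing member, was lowest at 126 CPM in PBS sample 4 and highest at 334 CPM in PBS sample 5. Its relation with the distal Hox score had r = 0.79 and rho = 0.78 (permutation p = 0.00316 and 0.00555, adjusted p = 0.0152 and 0.0231). It was 0.76 within the PBS group, 0.84 within the other and 0.78 without the same 2 libraries.

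Akr1c19 went the other way, with 327 CPM in PBS sample 4 and 75.6 to 89.3 CPM in PBS samples 1, 3 and 5 and B. thetaiotaomicron sample 3, the libraries with the 4 highest distal Hox scores. Its relation with the score had r = -0.82 and rho = -0.77 (permutation p = 0.00096 and 0.00577, adjusted p = 0.00618 and 0.0231). It was -0.81 within the PBS group, -0.84 within the other and -0.79 without the same 2 libraries. The other 10 libraries had 122 to 327 CPM, all above those 4, so the relation over all libraries rests in part on that split. Within the 10 the relation did not pass.

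Akr1b8 fell into separate clusters: those 4 libraries had 33.5 to 49.0 CPM, and the other 10 had 73.6 to 87.4 CPM. Its relation over all libraries is therefore not given as an r. Within the 10 libraries r was -0.51 with the distal Hox score and 0.65 with the epithelial score, and neither passed (permutation p = 0.138 and 0.0445, adjusted p = 0.413 and 0.268).

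**Figure D4:**
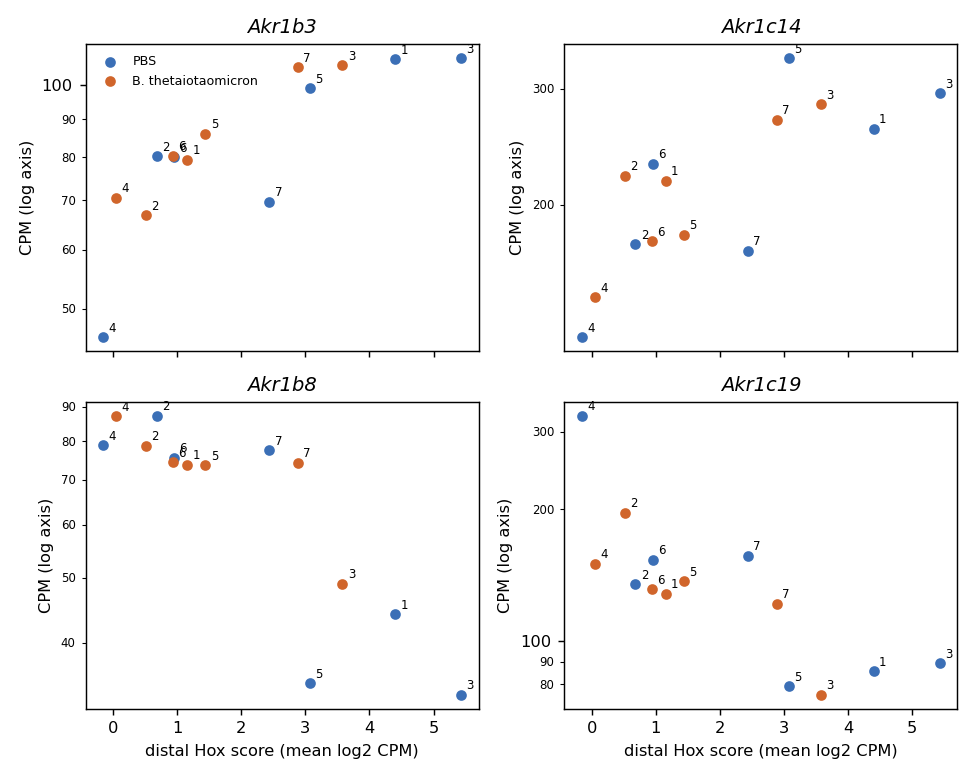
CPM of 4 members on a log axis against the distal Hox score (mean log2 CPM of 6 posterior Hox genes), with 1 numbered point per library, PBS in blue and B. thetaiotaomicron in orange. Akr1b3 and Akr1c14 are higher and Akr1b8 and Akr1c19 lower in the libraries with high scores, of either gavage.

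Of the 24 relations 5 passed an adjusted p of 0.05: those of Akr1b3, Akr1c14, Akr1c19 and Akr1b8 with the distal Hox score, and that of Akr1b8 with the epithelial score. The relations of Akr1b8 rest on the clusters just described, and that of Akr1c19 in part on the same split of libraries. The test was not run on the other genes, so the share of all genes that would pass is not known. The count is therefore not a trait of this family. Akr1c12 had r = -0.61 with the distal Hox score (permutation p = 0.0197, adjusted p = 0.0677), and Akr1b7 had r = 0.49 (permutation p = 0.0791, adjusted p = 0.19). No relation with the smooth muscle score passed. The r largest in size was that of Akr1b7 at -0.61 (permutation p = 0.0284, adjusted p = 0.0851). The smallest p was that of Akr1b8 (permutation p = 0.0195, adjusted p = 0.0677). The scores are not independent of each other, since the distal Hox and epithelial scores had r = -0.83 after the same centring. Without the 4 libraries with the highest distal Hox scores none of the 24 passed. In the 10 left, r with that score was 0.71 for Akr1b3, 0.61 for Akr1c14 and -0.57 for Akr1c19. With the median of the Hox markers in place of their mean, the relations of these 3 members had r = 0.66, 0.69 and -0.61 and no longer passed (permutation p adjusted to 0.0804, 0.0712 and 0.107).

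**Figure D5:**
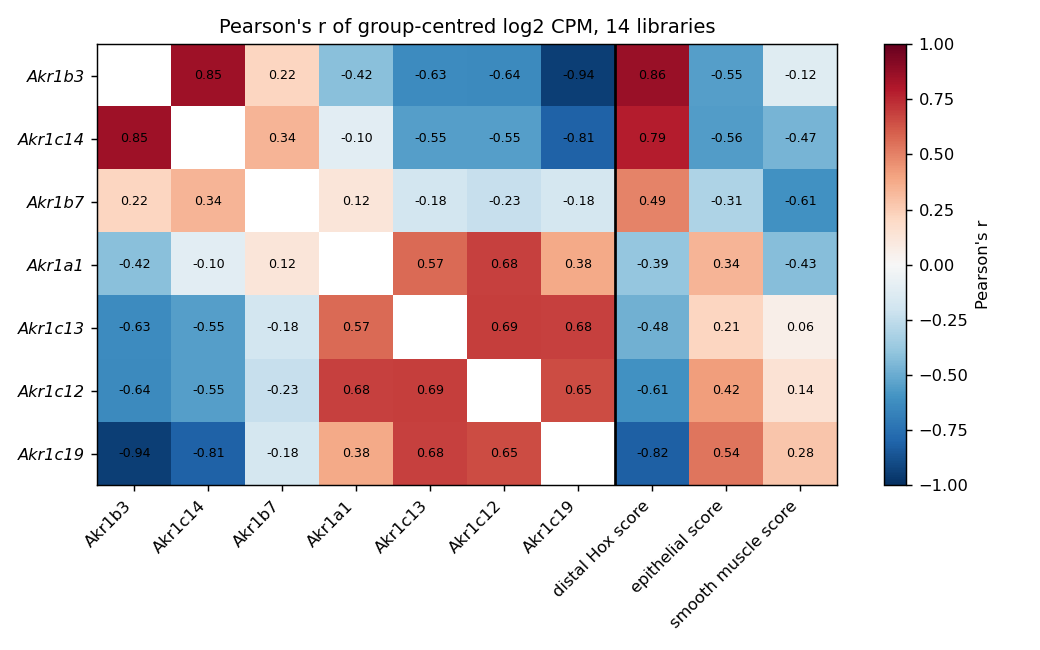
Pearson's r of group-centred log2 CPM over 14 libraries, between pairs of 7 members (left of the line) and between these members and 3 tissue scores (right), from blue at -1 to red at 1. Akr1b3 and Akr1c14 are red with each other (0.85) and with the distal Hox score, and blue with Akr1c19. Akr1b8 is not drawn because its libraries fell into clusters. Akr1c19 is drawn, though the same libraries lay below all others for it too.

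The tested genes whose group-centred pattern was most like each member were named by the highest r over the 14 libraries, as a description. For Akr1b3 they were Anxa3, an annexin gene (r = 0.98), Slc6a8, the creatine transporter gene (0.98), and Nans, a sialic acid synthase gene (0.97). For Akr1b8 they were Plet1 (0.97), Slc12a8 (0.97) and B3gnt6, a mucin glycan enzyme gene (0.96), values that rest on the same clusters of libraries. For Akr1c19 they were Slc35d1, a nucleotide sugar transporter gene (0.98), Aldh3a2, a fatty aldehyde dehydrogenase gene (0.98), and Ppm1l (0.97). These values rest in part on the same split. For Akr1c14 they were Mtmr4 (0.95), Cracd (0.94) and Tax1bp3 (0.93). Akr1b7, with its low counts, had no gene above r = 0.82, the nearest being 2210016L21Rik, Bcs1l and Ccdc137. The steadier members were nearest to Mapk3 (0.91), Grpel1 and Rpl29 (0.87 each) for Akr1a1, to Dbi (0.92), Sv2b (0.90) and Zfp97 (0.85) for Akr1c12, and to P2ry14 (0.90), Bri3 (0.88) and Epha1 (0.86) for Akr1c13.

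In 6 lists of pathways around the family, of 6 to 27 tested genes each, edgeR called no gene in either direction, against 0.249% of all genes. DESeq2, which called 3.18% of all genes tested, called Fth1, Hspa1b, Abcg1 and Cyp3a13. Over all genes tested, 15.2% (2145 of 14070) had an unadjusted edgeR p under 0.05 and 46.2% had a positive fold change, and each list's counts are read against these shares. Of 25 targets and regulators of NRF2, log2 fold changes were positive for 17 and negative for 8 (median 0.10), and 7 had an unadjusted p under 0.05. Fth1, which encodes ferritin heavy chain, had 1936 ± 379 CPM with PBS and 1444 ± 165 CPM with the bacterium (SD, n = 7 each), and Txn1, which encodes thioredoxin, had 623 ± 165 and 809 ± 78.6 CPM. The adjusted p of Fth1 was 0.122 by edgeR and 0.0297 by DESeq2, and that of Txn1 was 0.251 by edgeR.

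Sorbitol made by aldose reductase is an osmolyte and a precursor of fructose. Of 10 genes of polyol, fructose and methylglyoxal metabolism 4 were positive and 6 negative (median log2 fold change -0.05), with 1 at an unadjusted p under 0.05, the smallest p being those of Slc2a5, the fructose transporter gene, at 0.69 ± 0.29 (SE), and Hagh, a glyoxalase gene, at -0.13 ± 0.08 (SE). Of 6 tested genes of the osmotic response 5 were negative (median -0.20), with 4 at an unadjusted p under 0.05, against 15.2% of all genes tested. Hspa1b, a heat shock protein gene with a near-identical copy, had 94.5 ± 86.3 and 30.9 ± 14.2 CPM (SD, n = 7 each; adjusted p = 0.149 by edgeR and 0.0303 by DESeq2), and Slc38a2, an amino acid transporter gene, 276.8 ± 16.5 and 248.8 ± 12.7 CPM.

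Other carbonyl-handling and steroid enzymes showed no common direction. Of 27 tested carbonyl reductase, alcohol and aldehyde dehydrogenase genes 13 were positive and 14 negative (median log2 fold change -0.01), with 1 at an unadjusted p under 0.05, led by Aldh6a1 at -0.26 ± 0.12 (SE) and Cbr3, a carbonyl reductase gene, at 0.26 ± 0.14 (SE). Of 20 tested genes of steroid hormone metabolism 10 were positive and 10 negative, with 2 at an unadjusted p under 0.05 (15.2% of all genes tested), led by Hsd17b7, which also serves cholesterol synthesis, at 0.33 ± 0.11 (SE) and Hsd11b2, which inactivates glucocorticoids, at -0.57 ± 0.18 (SE).

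Nuclear receptors for bile acids, oxysterols and foreign compounds are known to act on Akr1b7 in mice. Of 18 tested genes in a list of such receptors and their gut targets, 6 were positive and 12 negative (median log2 fold change -0.11), with 2 at an unadjusted p under 0.05, a share near the 15.2% of all genes tested. Abcg1, a target of the oxysterol receptors, had 0.46 ± 0.13 (SE), and Cyp3a13, a target of receptors for foreign compounds, had -0.47 ± 0.14 (SE), with adjusted p of 0.131 and 0.133 by edgeR and 0.0385 and 0.0371 by DESeq2. The bile acid receptor gene Nr1h4 had 88.5 ± 46.6 CPM with PBS and 69.9 ± 20.7 CPM with the bacterium (SD, n = 7 each). Nr5a2, which encodes LRH-1, had 84.4 ± 10.1 and 78.1 ± 3.83 CPM. Neither was called, with adjusted p of 0.599 for Nr1h4 and 0.489 for Nr5a2 by edgeR.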

How the data were processed

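Colon RNA was sequenced in 14 libraries, 7 per gavage, prepared with a SMARTER mRNA kit, per the labels' protocols. The submitters' processing notes name GRCm38 and mm10. Aligner, counter and use of strand: not given in the sources used here. The authors deposited whole-number read counts for each gene, and FPKM that equal the count divided by the deposited gene length and the library total to within 0.000452%. Of 21794 identifiers shared with GENCODE M21, 514 start at the same position in the deposited table, so positions come from GENCODE. Library names tied columns to samples and gave replicate numbers.

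The members and lists were chosen with earlier results of these data known. Genes passing filterByExpr (minimum count 10, minimum total 15) were scaled by TMM and tested with edgeR 4.0.16 (robust quasi-likelihood F test on group, R 4.3.3), with Benjamini-Hochberg adjustment over 14070 genes and a threshold of 0.05. An SE is the absolute log2 fold change over the root of F. Log2 CPM used a prior count of 2. Relations with scores (means of log2 CPM over markers) used 100000 permutations within groups. Same-group libraries all differed beyond counting noise (chi-square per degree of freedom 9.95 or more). The biological coefficient of variation was 0.21. The tests were checked on simulated data. Genes named are the members, the other Akr rows, the 2 smallest p of each pathway list and the 3 genes most like each member, while Nr1h4 and Nr5a2 were added after their values were seen.

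Alternatives were DESeq2 1.42.0, limma-voom (limma 3.58.1), other scaling, filters, dispersions and prior count, a replicate block, tissue scores as covariates, and leaving out each library or 4 of them (PBS 1, 3 and 5 and B. thetaiotaomicron 3), which an earlier look at these data had placed apart. Transcript lengths were tried after the data were seen.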

Additional observations from a re-analysis of the deposited data

Results flagged for a closer look

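In 16 groups of 7 libraries (8 members in each gavage), 3 had 1 library far from the others, where chance gives about 1 in 20. Akr1b8 was at 49.0 CPM in B. thetaiotaomicron sample 3, and the next lowest library of that group had 73.6 CPM. Akr1c19 was at 327 CPM in PBS sample 4, and the next highest PBS library had 157 CPM. Akr1c13 was at 204 CPM in PBS sample 4, and the next highest PBS library had 172 CPM. PBS sample 4 had the lowest distal Hox score of all libraries (-0.15) and B. thetaiotaomicron sample 3 the highest of its group (3.58). The part of the score in these values was not tested.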

How the results depend on the processing

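Where edgeR called 35 genes, DESeq2 called 447, an adjusted p threshold of 0.1 gave 198, the replicate block 15, and the epithelial covariate or leaving out the 4 libraries 0. Leaving out 1 library gave 0 to 121 genes: 0 without PBS sample 5, 6 or 7 or B. thetaiotaomicron sample 1, 2, 4 or 6, 1 without PBS sample 1 or 3, 2 and 8 without B. thetaiotaomicron samples 7 and 3, and 121 without PBS sample 2. The members called, 1 in the main comparison, were 0 with the block, with either covariate, without a low-count filter, with at least 1 CPM in 7 samples (which removes Akr1b7), without the 4 libraries (PBS 1, 3 and 5 and B. thetaiotaomicron 3), and 0 to 1 when leaving out 1 library. Whether replicate numbers pair the libraries could not be settled. Same-numbered deviations had correlations from -0.26 to 0.60, with 4 of 7 above 0.1 and 2 of 7 libraries closest to their own number. With the block Akr1b7 had -1.54 (adjusted p = 0.0798 by edgeR).

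Of the relations with tissue scores, 5 passed in the main test, 8 without scaling factors, 3 with the median of the markers, 8 with Spearman's rho, 0 without the 4 libraries (10 libraries left), and 5 to 9 when leaving out 1 library, 9 being without PBS sample 4. With the median of the markers, Akr1b3, Akr1c14 and Akr1c19 no longer passed with the distal Hox score (r = 0.66, 0.69 and -0.61). Akr1b7 passed under that setting (r = 0.70, permutation p adjusted to 0.0441) but not in the main test (r = 0.49, permutation p adjusted to 0.19). With 4 to 35 reads per library, its pass under 1 setting is given as a description only.

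Members that were not called changed sign as follows, with log2 fold changes. With the distal Hox covariate Akr1c13 had -0.0024 and Akr1c14 0.10. With the epithelial covariate Akr1b8 had -0.078, Akr1c12 -0.0068, Akr1c13 -0.00051 and Akr1c14 0.15. Without the 4 libraries Akr1b8 had -0.048, Akr1c12 -0.0086, Akr1c13 -0.025 and Akr1c14 0.20. Leaving out 1 library gave -0.098 to 0.080 for Akr1b3 (negative without PBS sample 2, 4, 6 or 7 or B. thetaiotaomicron sample 3 or 7), -0.20 to 0.030 for Akr1c14 (positive without PBS sample 5) and -0.24 to 0.21 for Akr1c19 (positive without PBS sample 4). The cause was not tested for any of these. Akr1b7, whose groups did not overlap, kept its sign throughout, which adds no support. Its 4 to 35 reads per library limit the precision.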
